A study of Mus musculus with 9 samples.

Results

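The comparison described here sets haematopoietic stem cells (HSCs) of old mice that carry a Sphk2 knockout (KO) beside HSCs of young wild-type (WT) mice, and asks what stayed different from young cells and what lay at a like level. It took all 3 old KO and all 3 young WT libraries out of 9 libraries of mouse bone marrow cells, and the 17866 genes, of 52550 gene identifiers, with at least 20 counts in 2 or more libraries of either group. The young mice were 2 months old and carried the wild-type genotype. The old KO mice were 22 to 24 months old, and their genotype is given as B6N.129S6-Sphk2tm1Rlp/J. The labels call these mice both Sphk2 KO and Sphk2 cKO, and name no Cre driver. Age and genotype both differ between the groups, so the share of each in a difference cannot be told apart here. Every library came from 1000 sorted Lin-, Sca1+, c-Kit+, CD48- and CD150+ cells, amplified by 13 PCR cycles and read as pairs of 150 bp. The labels speak of technical replicates and name no animal, litter or day, so p-values measure only the spread between these samples.

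HSCs are rare marrow cells that are mostly out of the cell cycle and give rise to all blood lineages. With age they grow in number and lose function, and inflammatory signalling and a bias towards myeloid and platelet output are commonly described in them. Sphk2 encodes sphingosine kinase 2, which phosphorylates sphingosine to sphingosine 1-phosphate (S1P), a lipid that acts inside the nucleus and, once exported, through the S1P receptors. Ferroptosis, named in the title of the study beside sphingosine metabolism, is a cell death by iron-dependent lipid peroxidation, which the glutathione peroxidase Gpx4 and the iron store ferritin hold in check.

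The groups differed in depth and in background, and both bear on every value that follows. Counts in genes ranged from 28088637 to 74021822 in young WT libraries and from 11284847 to 17544945 in old KO libraries. Reads outside annotated genes made up 6.51% to 12.5% of all counts in young WT and 45.0% to 61.9% in old KO. The background, taken as the read density over exons of 1134 olfactory receptor genes, which blood cells are not known to use, was 1.09 to 1.43 reads per kb in young WT and 5.55 to 7.29 reads per kb in old KO. None of these 3 ranges overlapped, and the exact two-sided permutation test gave p = 0.1 for each, the smallest value that 3 against 3 libraries allow. Above background, for a gene in a given library, means 20 or more counts that also reach 5 times what this density predicts for its exons. Between 7379 and 8122 protein-coding genes met this in young WT libraries, against 2877 to 4171 in old KO libraries.

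The targeted gene was checked first. Sphk2 (chromosome 7, 45709467 to 45718002, mm10) had 1684, 88 and 576 counts in young WT libraries 1 to 3, where background alone would give 4.90, 4.55 and 5.93. It had 12, 23 and 8 counts in the old KO libraries, all below the 27.9, 30.3 and 23.1 expected from background. The groups did not overlap, at 3.01 to 24.1 normalised CPM (read counts scaled by the library's counts in genes and its normalisation factor) against 0.463 to 2.01. The difference was -3.80 ± 1.50 (log2 fold change of old KO over young WT ± standard error, the form used throughout) and missed the threshold in edgeR's quasi-likelihood test (adjusted p = 0.0576). Gene totals do not show which exons are missing in the KO, so the check rests on the whole gene. Old WT libraries had 20, 1 and 35 counts, also all below the 41.2, 22.5 and 43.3 expected there from background. Low counts in old KO therefore do not by themselves show the loss of the gene.

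Markers of the sorted cell were checked next. In each group 7 of the 8 stem cell markers were above background in 2 or more libraries. The summed level of these markers was 976.6 to 1486 normalised CPM in young WT and 1134 to 2379 in old KO. Kit, the receptor used in the sort, stood at 617, 465 and 465 in young WT and 92.0, 407 and 136 in old KO (-1.28 ± 0.73, adjusted p = 0.179 by edgeR). Slamf1, which encodes CD150, was low in young WT at 0.800, 12.0 and 9.15 and reached 44.8, 633 and 33.5 in old KO (5.02 ± 1.60, adjusted p = 0.0258). Old KO library 2 carried most of that rise, and without it the call was lost, as it was without young WT library 1 or 3 (adjusted p = 0.0569 to 0.322). Summed neutrophil and monocyte markers ranged from 691 to 1140 in young WT and from 1122 to 2017 in old KO, and summed erythroid markers from 32.5 to 334 and from 2.82 to 61.8. Summed megakaryocyte markers ranged from 388 to 763.6 and from 84.2 to 525. Of 4 T and NK cell markers 1 was above background in 2 or more libraries of young WT, and a different one, Klrb1c, in old KO. The sum of the 4 was 0.715 to 26.2 in young WT and 8.87 to 178 in old KO. No B cell or stromal marker was above background in 2 libraries of either group. Their summed levels, 0.514 to 0.902 and 0.915 to 4.14 in young WT, were 6.25 to 16.4 and 23.1 to 43.9 in old KO. The part of these other cell types, and of free background reads, in the differences below was not tested.

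Over all tested genes, 7126 were called higher in old KO and 534 lower (39.9% and 2.99%, 42.9% in either direction), called meaning an adjusted p under 0.05 in edgeR's quasi-likelihood test over all 17866 genes. Most of those calls fell on genes at background. Of the 7660 called genes, 6946 (90.7%) were above background in fewer than 2 libraries of either group, and every one of these was higher in old KO, the group with the denser background. Their number also set the threshold for all other genes, since the Benjamini-Hochberg adjustment let through any gene with an unadjusted p of up to 0.0214. The account below therefore rests on 2868 genes above background in 2 or more libraries of each group, called co-expressed here, and describes 5489 genes above background in young WT only and 198 in old KO only. Genes of these last 2 classes were seen through the group in which they are high, so a count of them in one direction supports nothing about a list. Of the young-only genes 488 were called lower (8.89%) and 18 higher (0.328%), and 60 of these 506 calls held in each of 6 runs that left out 1 library. Of the 198 genes above background in old KO only, 103 were called higher and none lower.

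The number of genes that could be seen in old KO depended on their level in young WT. Among protein-coding genes seen above background in each of the 3 young WT libraries, 216 of the 217 with a mean of at least 500 normalised CPM were also above background in all 3 old KO libraries. The share was 47.9% of 1189 genes between 100 and 500, 17.9% of 1432 between 50 and 100, and 5.74% of 924 below 20. Absence from an old KO library was thus common for genes of modest level. Old KO libraries had fewer counts in genes and a denser background, so a gene needed a higher level there to be seen. The part of this in the absences was not tested. In bulk RNA, fewer cells that use a gene and less RNA per cell cannot be told apart either.

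**Figure D1:**
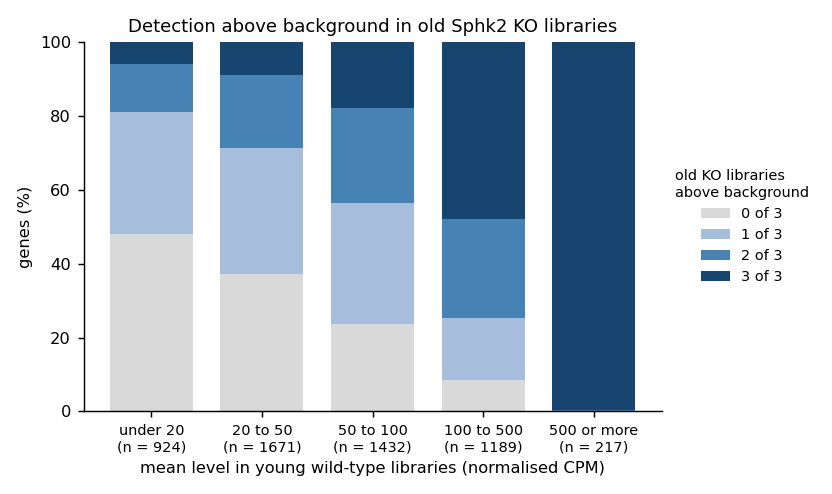
Share of protein-coding genes (vertical axis, %) above background in 0, 1, 2 or all 3 old Sphk2 KO libraries, for genes seen above it in each of the 3 young WT libraries, grouped by their mean young WT level (horizontal axis, normalised CPM; n, genes). Nearly all of the 217 most abundant genes were seen in every old KO library, against 17.9% of the 1432 genes between 50 and 100 normalised CPM.

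Among the 2868 co-expressed genes, 59 were called higher in old KO and 46 lower (2.06% and 1.6%, 3.66% in all), and their median log2 fold change was 0.05. Another 1614 genes (56.3%) lay at a like level, which means that they were not called, differed by less than 2-fold and had overlapping ranges. The groups' ranges did not overlap in 503 genes (17.5%). The interval of most single genes was wide: the median standard error was 1.28 on the log2 scale, and only 69 genes had a 95% interval wholly within 2-fold. The 223 genes with a mean of at least 500 normalised CPM held all 69 of them. In that abundant group, where the median standard error was 0.35, 20 genes were called higher and 28 lower (8.97% and 12.6%), and 128 lay at a like level (57.4%).

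How firmly these calls stand depended on which genes shared the adjustment. Adjusted over the 2868 co-expressed genes alone, a choice made after seeing the data, 10 genes passed, 6 higher and 4 lower. The 6 higher were Nfkbia, Klf4 and the predicted genes of unclear status Gm10800, Gm10801, Gm21738 and Gm26870. Adjusted over the 8555 genes above background in 2 libraries of either group, only 3 passed (0.0351%), and none of the genes of known function named below were among them. Leaving out each of the 6 libraries in turn, 32 of the 105 co-expressed calls passed in every run, 16 higher and 16 lower. Scaling moved all genes together: the median of the co-expressed genes was -1.43 with TMM factors over all tested genes, -1.71 with DESeq2 and 1.70 with upper-quartile factors, and changes are best read against it. A change set against that median hardly depends on the scaling, largely by construction. Its narrow range, given below for some genes and lists, is therefore no separate support for a call. The scalings counted there include the fits by DESeq2 and limma-voom, which are also other models.

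**Figure D2:**
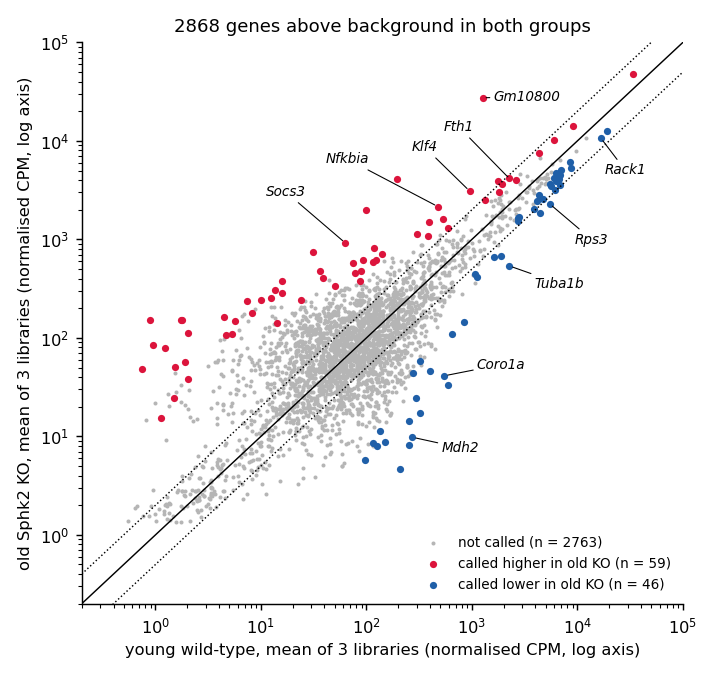
Mean level of each of the 2868 co-expressed genes in old Sphk2 KO (vertical) against young WT (horizontal), in normalised CPM on log axes, with equal levels as a solid line and 2-fold differences as dotted lines. The 59 genes called higher (red) and 46 called lower (blue) leave the cloud on both sides, and the cloud narrows towards abundant genes.

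Several genes of the NF-kB feedback list rose. Of 11 co-expressed members, 3 were called higher and none lower, against 2.06% called higher over all co-expressed genes, and the median was 1.00 against 0.05. The median was itself below 0 with TMM over all tested genes and with DESeq2 (-0.24 and -0.48). It lay 0.88 to 1.26 above that of the co-expressed genes under all 7 scalings, a range kept narrow largely by construction. NF-kB is a transcription factor family that inflammatory signals release from its inhibitors and that switches on those same inhibitors, adhesion molecules and chemokines.

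The promoters of 3 of the called members are shown because these genes are textbook NF-kB targets. They were picked for being called higher here, and Cxcl2 was above background in old KO only. Each is the run of 250 bases before the RefSeq start (GRCm38.p6) on the strand of the gene, with matches to the kappa-B-like letters GGGANNNNCC, or their reverse complement GGNNNNTCCC, in capitals. The first lies at chr12:55492648-55492897 (minus strand), the next at chr5:90903649-90903898 (plus strand) and the last at chr9:21015690-21015939 (plus strand).
Nfkbia: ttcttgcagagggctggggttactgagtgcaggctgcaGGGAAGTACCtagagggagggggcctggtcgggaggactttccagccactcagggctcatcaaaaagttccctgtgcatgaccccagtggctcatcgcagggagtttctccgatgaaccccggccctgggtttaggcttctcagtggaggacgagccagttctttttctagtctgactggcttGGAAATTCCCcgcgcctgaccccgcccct
Cxcl2: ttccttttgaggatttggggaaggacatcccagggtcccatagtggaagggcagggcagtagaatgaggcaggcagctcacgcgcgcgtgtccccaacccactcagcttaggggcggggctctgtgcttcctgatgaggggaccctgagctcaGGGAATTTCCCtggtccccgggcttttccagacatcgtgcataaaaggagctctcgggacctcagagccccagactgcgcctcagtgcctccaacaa
Icam1: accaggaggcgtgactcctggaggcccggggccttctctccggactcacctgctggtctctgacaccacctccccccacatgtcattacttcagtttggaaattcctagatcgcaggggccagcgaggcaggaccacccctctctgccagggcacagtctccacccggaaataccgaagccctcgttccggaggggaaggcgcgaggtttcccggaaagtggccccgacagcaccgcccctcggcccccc
Nfkbia had 2 matches, which start 212 and 29 bases before the gene start. Cxcl2 had 2 matches that overlap in a single stretch, 97 and 96 bases before its start, and Icam1 had none in this window. Both Tnfaip3 promoters in the table had 1 match each. Over all 32851 promoters of the same length 17.6% held the letters on either strand, and 22.5% of the 2737 promoters matched to co-expressed genes did. A match describes letters and not a bound site, and the lack of a match to these letters does not show that a site is missing.

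Nfkbia (chromosome 12, 55489410 to 55492647, mm10) encodes the inhibitor that holds NF-kB in the cytoplasm. Its level was 321, 479 and 629.8 normalised CPM in young WT and 1811, 2028 and 2609 in old KO. All 3 old KO libraries were above all young ones, with a log2 fold change of 2.17 ± 0.38 (adjusted p = 0.0116 by edgeR). The call held in each of the 6 runs that left out a library. The change lay 2.11 to 2.57 above the co-expressed median under the 7 scalings, which is no separate support. Nfkbia also passed among the co-expressed genes alone.

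Icam1, an adhesion molecule for leukocytes, stood at 89.1, 12.3 and 14.2 normalised CPM in young WT and at 344, 348 and 538 in old KO (3.41 ± 1.02, adjusted p = 0.0211 by edgeR). Tnfaip3, which encodes the NF-kB brake A20, rose from 88.4 ± 55.0 to 480.7 ± 281 (mean ± SD, n = 3; 2.44 ± 0.84, adjusted p = 0.0347 by edgeR). Both sets of libraries were apart, but the Icam1 call was lost without young WT library 2 or 3 or old KO library 3 (adjusted p = 0.0566 to 0.0618). The Tnfaip3 call was lost without young WT library 1 or 3 or old KO library 2 or 3 (adjusted p = 0.0777 to 0.126).

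The chemokine gene Cxcl2 was at background in young WT, at 0.171, 0.240 and 0.401 normalised CPM, and above background in all old KO libraries, at 32.4, 67.9 and 252 (adjusted p = 0.0116 by edgeR). Old KO library 3 was the highest, and the call held in all 6 runs. Of the 198 genes above background in old KO only 103 were called higher, so the Cxcl2 call supports nothing about the list. Birc3 and Nfkbiz had means of 12.4 and 146 in young WT and 204 and 607.6 in old KO without passing the test (adjusted p = 0.0575 and 0.111 by edgeR). Rela and Nfkb1, which encode NF-kB subunits, lay at a like level (0.77 ± 0.68 and 0.05 ± 1.08).

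Immediate early genes are switched on within minutes by many stimuli. Of 25 co-expressed members, 4 were called higher, none lower and 10 lay at a like level, with a median of 0.42, against 2.06% called higher over all co-expressed genes. Of the 4 calls, 1 held in all 6 runs. Socs3, a feedback inhibitor of cytokine signalling through STAT proteins, was at 9.56, 73.8 and 106 normalised CPM in young WT and at 1086, 1058 and 611 in old KO. Every old KO library was far above every young one (3.86 ± 0.85, adjusted p = 0.0116 by edgeR, kept in all 6 runs). Atf3, a stress-induced transcription factor, had 392, 818 and 370.1 against 1687, 1899.6 and 1226 (1.61 ± 0.44, adjusted p = 0.016 by edgeR). Its call was lost without young WT library 1 (adjusted p = 0.0502) or old KO library 2 (adjusted p = 0.0547), and its sign turned with DESeq2 (-0.10). Junb, an AP-1 subunit, rose from 4332 ± 1331 to 7496 ± 878 (0.79 ± 0.21), and Dusp1, a MAP kinase phosphatase, from 1933 to 3687 (0.93 ± 0.30). Junb lost the call without old KO library 3 (adjusted p = 0.0503) and Dusp1 without young WT library 2 or 3 or old KO library 1 (adjusted p = 0.0614 to 0.149). With TMM over all tested genes and with DESeq2, Junb turned to -0.71 and -1.03 and Dusp1 to -0.61 and -0.93.

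Some other members of the same list had intervals within 2-fold. Zfp36, which encodes a protein that destabilises cytokine mRNA, had 8327, 5266 and 6904 normalised CPM in young WT and 5658, 7426 and 6246 in old KO. The 2 sets of libraries interleaved, and the 95% interval of the log2 fold change ran from -0.46 to 0.30. Fos (-0.59 to 0.47), Fosb (-0.56 to 0.26), Egr1 (-0.43 to 0.31) and Nr4a1 (-0.48 to 0.69) also had intervals within 2-fold. These 5 members are the ones for which a difference of 2-fold lay outside the interval in the main test. The ranges of the groups did not overlap in 9 of the 25, against 17.5% over all co-expressed genes. Like levels depended on the scaling: Zfp36 was -1.62 with TMM over all tested genes, -1.96 with DESeq2 and 1.53 with upper-quartile factors.

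The Krueppel-like factors are zinc finger transcription factors of which several hold cells in quiescence. Of 8 co-expressed members, 1 was called higher, 1 lower and 2 lay at a like level, against 2.06% and 1.6% over all co-expressed genes. Their median was 1.49, with 6 of 8 values above 0, but -0.0017 with TMM over all tested genes and -0.33 with DESeq2. It lay 1.25 to 1.44 above the co-expressed median under the 7 scalings, a range kept narrow largely by construction. Klf4 (chromosome 4, 55527143 to 55532466, mm10) had 859.9, 1023 and 970.2 normalised CPM in young WT and 3372, 2735 and 3173 in old KO. The replicates were tight and apart, at 951 ± 83.1 and 3093 ± 326 (SD, n = 3), and the change of 1.70 ± 0.26 (adjusted p = 0.0116 by edgeR) held in all 6 runs and among the co-expressed genes alone. The change itself was -0.03 with DESeq2. It lay 1.65 to 1.96 above the co-expressed median under the 7 scalings, which is no separate support. Klf6 fell, with 1649, 1721 and 1459 against 721, 447 and 797 (-1.30 ± 0.38, adjusted p = 0.0191 by edgeR). It lost the call without young WT library 1 or 2 (adjusted p = 0.0562 and 0.0683) and turned to 0.38 with upper-quartile factors. Klf2 was at a like level, with means of 1703 and 1751 (0.04 ± 0.29).

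Of 21 co-expressed genes of the quiescence list, 3 were called higher, 1 lower and 14 lay at a like level, against 2.06% and 1.6% over all co-expressed genes. Klf4 and Klf6 are 2 of the 4 called. Gadd45b, a stress and growth arrest gene, had 108, 114 and 147 normalised CPM in young WT and 443, 497 and 925 in old KO (2.34 ± 0.66, adjusted p = 0.0178 by edgeR, lost without young WT library 2 or old KO library 3, adjusted p = 0.0532 to 0.06). Id2, an inhibitor of basic helix-loop-helix factors, had 0.243, 2.98 and 2.10 against 11.6, 258 and 191 (6.43 ± 1.74, adjusted p = 0.0156 by edgeR, lost without old KO library 2, adjusted p = 0.0517). The cell cycle inhibitor Cdkn1a had means of 514 and 612 (0.25 ± 0.56, adjusted p = 0.76 by edgeR).

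**Figure D3:**
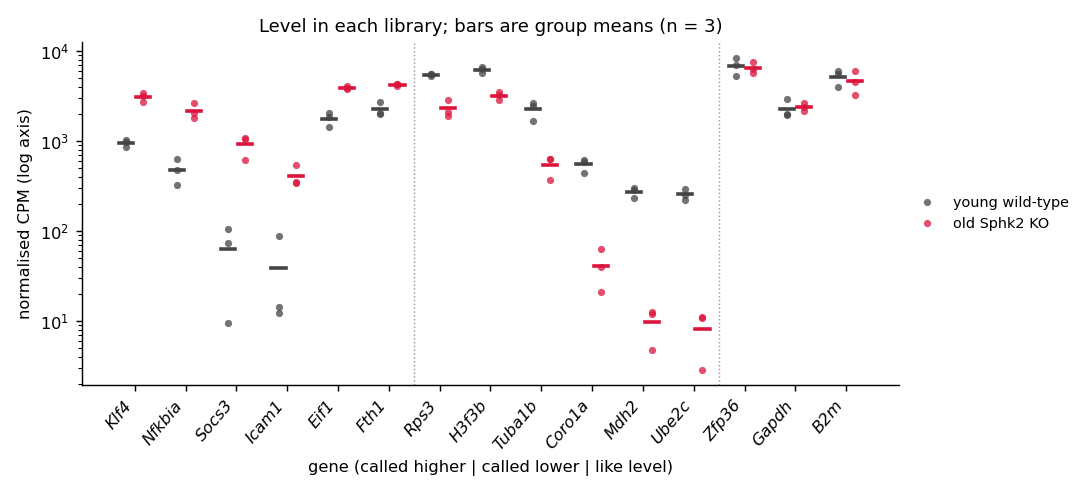
Level of 15 genes in each of the 3 young WT (grey) and 3 old Sphk2 KO (red) libraries, in normalised CPM on a log axis, with group means as bars. The first 6 genes were called higher and the next 6 called lower, with no overlap between groups, and Zfp36, Gapdh and B2m overlapped.

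Few genes of the cell cycle could be compared. Of 9 co-expressed S phase genes 1 was called lower and 6 lay at a like level, and of 4 co-expressed G2 and mitosis genes 1 was called lower and 1 lay at a like level, against 1.6% called lower over all co-expressed genes. None of these 13 was called higher. Dut, which keeps uracil out of DNA, had 822, 508 and 446 normalised CPM in young WT and 89.4, 4.64 and 5.38 in old KO (-4.16 ± 1.18, adjusted p = 0.018 by edgeR, lost without young WT library 1 at adjusted p = 0.0535). Another 26 S phase and 30 G2 and mitosis genes were above background in young WT only, and 9 and 10 of them were called lower. The share called lower over all genes seen in young WT only was 8.89%. Such genes were seen through the group in which they are high, so these counts support nothing about the 2 lists. Of all 21 lower calls in the 2 lists, 2 were of co-expressed genes and 19 of genes seen in young WT only. Of these, 1 and 3 held in all 6 runs that left out a library, 4 in all. Top2a, a topoisomerase, and Ung, a uracil-DNA glycosylase, held in 0 of them. Another 4 genes were called higher and were above background in fewer than 2 libraries of either group.

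The genes whose calls held were Rrm1, Mcm3, Rfc2 and Ube2c. Rrm1, a subunit of the reductase that makes deoxynucleotides, had 228, 152 and 223 normalised CPM in young WT and 5.91, 11.5 and 7.86, at background, in old KO (-4.57 ± 1.16, adjusted p = 0.0135 by edgeR). Mcm3, part of the replicative helicase, fell from 188 ± 57.9 to 7.06 ± 5.86 (-4.73 ± 1.27), and Rfc2, part of the clamp loader, from 203 ± 84.7 to 8.31 ± 2.60 (-4.61 ± 1.17). Because the old KO values hold background reads, these fold changes are those of the counts and not of expression above background.

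Ube2c, the ubiquitin-conjugating enzyme of the anaphase-promoting complex, was the co-expressed one. It stood at 248, 295 and 222 normalised CPM in young WT and 2.89, 10.8 and 11.0 in old KO (-4.95 ± 1.14, adjusted p = 0.0117 by edgeR). Mki67, the proliferation marker, fell from 105.5 ± 21.1 to 4.87 ± 1.41 (-4.44 ± 1.36, adjusted p = 0.0229 by edgeR), a call lost without old KO library 1 or 2 (adjusted p = 0.0533 to 0.055). The sliding clamp Pcna had means of 628 and 620.1 (-0.02 ± 0.52, interval -1.14 to 1.10), and Mcm7 and Mcm5 did not pass the test (-0.67 ± 1.03 and -0.47 ± 1.31). The 2 tubulin genes of greatest level fell together: Tuba1b had 1682, 2656 and 2440.1 against 364, 625 and 624 (-2.07 ± 0.37, adjusted p = 0.0116 by edgeR, kept in all 6 runs). Tubb5 went from 1873 ± 832 to 682 ± 282 (-1.46 ± 0.45, adjusted p = 0.0226 by edgeR, lost without young WT library 3 or old KO library 2 at adjusted p = 0.0524 to 0.14, and 0.21 with upper-quartile factors).

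Of 9 co-expressed histone genes, 3 were called lower and none higher, against 1.6% called lower over all co-expressed genes, and all 9 had values below 0, with a median of -0.81. H3f3b encodes the replication-independent histone H3.3. It had 6565, 5725 and 6216 normalised CPM in young WT and 2871, 3247 and 3452 in old KO (-0.95 ± 0.16, adjusted p = 0.0116 by edgeR). The call held in all 6 runs and among the co-expressed genes alone, while the value was 0.68 with upper-quartile factors. It lay 0.81 to 1.03 below the co-expressed median under the 7 scalings, a range kept narrow largely by construction. The linker histone gene Hist1h1c fell from 836 ± 122 to 145 ± 80.2 (-2.52 ± 0.62, adjusted p = 0.0126 by edgeR, kept in all 6 runs). H2afj, a histone H2A variant, had means of 96.9 ± 5.16 and 5.79 ± 3.2 (SD, n = 3) (-4.06 ± 1.39, adjusted p = 0.034 by edgeR), a call lost in each of the 6 runs (adjusted p = 0.0537 to 0.0887).

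The genes of cytosolic ribosomal proteins are the most abundant group, and reads of their many processed pseudogene copies can be split or lost in counting. Of 79 co-expressed members, 20 were called lower, none higher and 46 lay at a like level, with a median of -0.34. The share called lower was 1.6% over all co-expressed genes and 12.6% over the abundant ones, which include most of these members. Of 72 abundant ribosomal genes 20 were called lower, against 8 of 151 other abundant genes. Of the 20 calls, 6 held in all 6 runs, and those of Rpl15, Rpl29 and Rps20 held in 1. For 40 of them the interval lay within 2-fold, so the shift was small for most. Their median was above 0, at 1.30, with upper-quartile factors. It was 0.16 to 0.42 below that of the co-expressed genes under the 7 scalings, a range kept narrow largely by construction. Rps3 had 5507, 5596 and 5226 normalised CPM in young WT and 2109.8, 1907 and 2877 in old KO (-1.24 ± 0.20). It had an adjusted p of 0.0116 by edgeR, held in all 6 runs and passed among the co-expressed genes alone, and it turned to 0.41 with upper-quartile factors. Rplp0 stood in contrast, with 6799, 5129.7 and 5123 against 6331, 4992 and 6339 and an interval of -0.31 to 0.41. The translation factor Eif1 rose, from 2015, 1435 and 1853 to 3767, 3861 and 4076 (1.14 ± 0.22, adjusted p = 0.0116 by edgeR, kept in all 6 runs, -0.37 with TMM over all tested genes and -0.68 with DESeq2).

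Mitochondrial genes were compared in 2 lists, of the mitochondrial genome and of nuclear genes. Of 12 co-expressed genes of the mitochondrial genome, 2 were called higher (2.06% over all co-expressed genes) and 9 lay at a like level, with a median of 0.29: mt-Co1 rose from 9137 ± 1542 to 14303 ± 3312 normalised CPM (0.65 ± 0.16) and mt-Cytb from 6019 ± 1643 to 10228 ± 2754 (0.76 ± 0.22). Both calls were lost without old KO library 3 (mt-Co1 adjusted p = 0.0659 and mt-Cytb adjusted p = 0.113), and both signs turned with TMM over all tested genes (-0.83 and -0.71) and with DESeq2 (-1.13 and -0.99). Of 38 co-expressed nuclear genes of oxidative phosphorylation, none was called in either direction by edgeR, at a median of -0.74 (0.98 with upper-quartile factors). Over all co-expressed genes 3.66% were called, so the lack of calls in a list of this size says little. Ndufa1, a subunit of complex I seen in young WT only, was called lower (-5.44 ± 1.77, adjusted p = 0.0282 by edgeR), a call lost without each old KO library (adjusted p = 0.0961 to 0.103). Mdh2, a matrix enzyme of the citric acid cycle, had 287, 297 and 234 against 12.1, 4.72 and 12.5 (-4.80 ± 1.08, adjusted p = 0.0116 by edgeR, kept in all 6 runs). Of 14 co-expressed glycolysis genes none was called, beside the same 3.66%, and Gapdh had 2888, 1982 and 1917 against 2635, 2382 and 2136 (interval -0.48 to 0.63).

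Of 21 co-expressed proteasome genes, 2 were called lower and none higher, against 1.6% called lower over all co-expressed genes, with a median of -0.94 (0.61 with upper-quartile factors). Psma6, a subunit of the core ring, had 372, 152 and 103 normalised CPM in young WT and 4.15, 3.85 and 5.90 in old KO (-5.49 ± 1.25, adjusted p = 0.0117 by edgeR, kept in all 6 runs). Psmb6, a catalytic subunit, had 369, 144 and 239.9 against 7.04, 34.1 and 1.39 (-4.14 ± 1.32, adjusted p = 0.0262 by edgeR, lost without young WT library 1 or old KO library 1, adjusted p = 0.0577 to 0.0806). Coro1a, an actin-binding protein of blood cells, had 586, 612 and 443 against 21.1, 62.6 and 39.9 (-3.73 ± 0.80, adjusted p = 0.0116 by edgeR, kept in all 6 runs). Actb had 1490.3, 1091 and 1383 against 1748, 2717 and 3017 (0.92 ± 0.30, adjusted p = 0.028 by edgeR), lost in 5 of the 6 runs (adjusted p = 0.0525 to 0.104) and turned to -0.58 with TMM over all tested genes and -0.90 with DESeq2. The other 20 of 22 co-expressed actin cytoskeleton genes were not called, and over all co-expressed genes 3.66% were called.

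**Figure D4:**
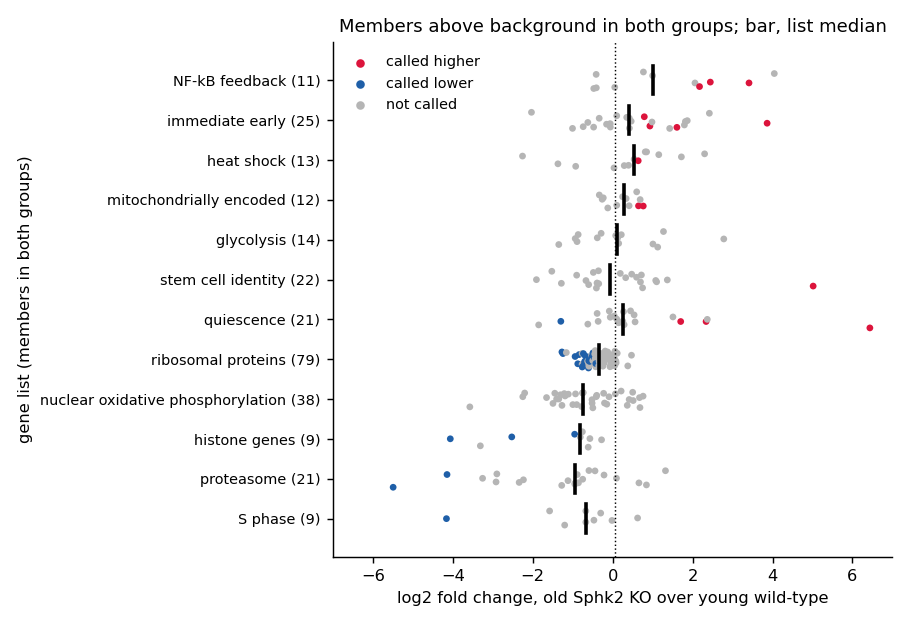
Log2 fold change of old Sphk2 KO over young WT (horizontal) for each co-expressed member of 12 gene lists, with the list median as a bar and the median of all co-expressed genes, 0.05, as a dotted line. Called members lie to the right in the NF-kB list and to the left in the ribosomal, histone, proteasome and S phase lists, and most members of each list were not called.

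Most stem cell genes were not called, as was so for co-expressed genes at large, of which 3.66% were called in either direction. Of 22 co-expressed members of the stem cell identity list, 1, Slamf1, was called higher, none lower and 12 lay at a like level, with a median of -0.08. Over all co-expressed genes 2.06% were called higher and 56.3% lay at a like level. The ranges of the groups did not overlap in 8 of the 22, against 17.5% over all co-expressed genes. Gata2, a transcription factor needed by HSCs, had means of 1027 and 806 (-0.35 ± 0.40), and Hlf, a marker of long-term HSCs, 345 and 228 (-0.60 ± 0.77). Neither interval lay within 2-fold. Of the 13 members above background in young WT only, 2 were called lower, against 8.89% of all genes seen in young WT only. Ezh2, the methyltransferase of Polycomb complex 2, fell from 134 ± 53.0 to 4.27 ± 3.04 (-4.97 ± 1.39), and Cd27, a TNF receptor family member, from 475, 108 and 39.9 to 4.78, 3.76 and 2.60 (-5.80 ± 1.41, adjusted p = 0.0124 by edgeR). Both calls held in all 6 runs.

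Of 24 co-expressed genes of the list reported as higher in old HSCs, 2 were called higher, Slamf1 and Junb, none lower, and 9 lay at a like level, with a median of 0.51, beside the same 2.06%. Only 4 of 26 tested genes reported as lower in old HSCs were co-expressed, and none of those was called. Nkg7, a granule protein of cytotoxic cells, was above background in young WT only, at 84.0, 156 and 78.8 normalised CPM against 1.62, 1.14 and 0.173 in old KO (-6.76 ± 1.66, adjusted p = 0.0125 by edgeR, kept in all 6 runs). Klrb1c, the NK cell receptor gene of NK1.1, went the other way and was above background in old KO only, at 0.0857, 0.0685 and 0.134 against 2.39, 14.8 and 175 (adjusted p = 0.0125 by edgeR, kept in all 6 runs).

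Of the 16 co-expressed genes that protect from ferroptosis, Fth1 was called higher and none lower, against 2.06% and 1.6% over all co-expressed genes. Fth1, the heavy chain of the iron store ferritin, had 1996, 2041 and 2712 normalised CPM in young WT and 4243, 4039 and 4229 in old KO, with all old KO libraries higher (0.89 ± 0.20, adjusted p = 0.0117 by edgeR). It held in all 6 runs, but its sign turned with TMM over all tested genes (-0.57) and DESeq2 (-0.85). It lay 0.83 to 1.18 above the co-expressed median under the 7 scalings, which is no separate support. Among protective members seen in young WT only, Vkorc1l1 (-4.60 ± 1.57) and Stard7 (-4.28 ± 1.49) were called lower and Gclc, a subunit of the enzyme that starts glutathione synthesis, higher (5.60 ± 2.05), with adjusted p of 0.034, 0.0366 and 0.0439 by edgeR. Old KO library 2 carried the Gclc value, and each of these 3 calls held in 1 of the 6 runs. Of 12 co-expressed promoting members none was called. Ftl1, the light chain, had 692, 550.4 and 722 against 784, 1053 and 1129 (0.59 ± 0.42, adjusted p = 0.284 by edgeR). Gpx4 had 937, 957 and 1013 against 786, 589.9 and 567, with every old KO library lower, and did not pass (-0.58 ± 0.42, adjusted p = 0.292 by edgeR, interval -1.49 to 0.32). Chac1, a promoting member that degrades glutathione and is induced by the integrated stress response, was at 0.143 in young WT library 1 and 0 in the other two, and at 4.93, 18.4 and 17.8 in old KO (adjusted p = 0.0131 by edgeR, kept in all 6 runs).

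Sphingolipid genes could be compared in small number. Of 46 listed, 9 were co-expressed, none of them called and 7 at a like level, and 20 were above background in young WT only. Over all co-expressed genes 3.66% were called and 56.3% lay at a like level, so the lack of calls says little. Of the 20 genes seen in young WT only 2 were called lower, against 8.89% of all such genes. They were seen through the group in which they are high, so this count supports nothing about the list. Spns2, the S1P exporter, had means of 546 and 541 normalised CPM (-0.01 ± 0.53, interval -1.17 to 1.14). Smpd1, acid sphingomyelinase, had 56.8, 122 and 47.2 in young WT and 3.66, 2.36 and 0.463 in old KO (-5.12 ± 1.61, adjusted p = 0.0247 by edgeR), and the lysosomal galactosidase gene Glb1 fell to background as well (-4.97 ± 1.61, adjusted p = 0.0274 by edgeR). Both calls were lost without young WT library 2 and without each of the old KO libraries (Smpd1 adjusted p = 0.0503 to 0.0679 and Glb1 adjusted p = 0.0583 to 0.0796). S1pr1, the S1P receptor of highest level, had 273, 16.7 and 383 against 5.70, 58.1 and 5.38, so the groups overlapped (-3.28 ± 1.44, adjusted p = 0.0844 by edgeR). Sphk1, which encodes the other sphingosine kinase, was above background in fewer than 2 libraries of each group.

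Of the protein-coding genes called lower, 383 were seen in each young WT library and in no old KO library, judged by the background rule. Mogs, the glucosidase that starts trimming of N-glycans, was the one of highest mean, with 212, 239.8 and 235 normalised CPM in young WT and 1.62, 1.40 and 1.27 in old KO (-7.32 ± 1.26, adjusted p = 0.0116 by edgeR, kept in all 6 runs). In the reverse direction 4 protein-coding genes were called: Cxcl2, Chac1, Aldoc, a glycolytic aldolase, at 78.9, 99.5 and 32.4 in old KO, and Nptx2, a neuronal pentraxin, at 108, 8.57 and 5.32. Young WT levels of Aldoc were 0.272 to 0.634 and those of Nptx2 at most 0.0334. These 383 and 4 genes were seen through the group in which they are high, so the 2 counts cannot be set against each other. Over all genes seen in young WT only 8.89% were called lower, and 103 of the 198 seen in old KO only were called higher.

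The smallest p-values of the comparison belong to predicted genes of unclear status. Gm10800 (chromosome 2, 98666547 to 98667301, mm10) had 543, 1694 and 1544 normalised CPM in young WT and 27652, 33725 and 20931 in old KO (4.44 ± 0.36, adjusted p = 0.000593 by edgeR). Gm21738 and Gm10801 followed at 4.37 ± 0.44 and 4.32 ± 0.60, and these 3 genes are those that passed over the 8555 genes above background. Between groups Gm10800 was ordered as the share of reads outside genes, which was 6.51% to 12.5% in young WT and 45.0% to 61.9% in old KO. Old WT libraries, with 80.8% to 87.7%, had 81794 to 133835 CPM of Gm10800. Within young WT and old WT the 2 orders differed: young WT library 2 had more Gm10800 than library 3 at a lower share, and old WT library 2 more than library 1. The loci lie in windows known for piled-up satellite repeat reads, and the part of such reads in the values was not tested.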

How the data were processed

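RNA sequencing counts of 3 young WT and 3 old Sphk2 KO libraries were compared. Whole-number read counts of each gene and library were used as the authors deposited them, without normalisation. Tools named in the submitters' processing notes were HTSeq 0.10.0, edgeR 3.24.3, Trim Galore 0.6.2 and STAR 2.6.1d, with the build mm10. Neither annotation nor strand setting is given in the sources used, so overlapping antisense genes and near-identical copies cannot be told apart. Of 52550 gene identifiers, 52403 matched GENCODE M21, which gave symbols, coordinates and exon lengths. The 5 lines without a gene were left out of totals and tests and held 45.0% to 61.9% (no feature) and 2.07% to 2.99% (ambiguous) of old KO counts.

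Genes with at least 20 counts in 2 libraries of either group were tested with edgeR 4.0.16 in R 4.3.3 (quasi-likelihood F test, a mean per group, Benjamini-Hochberg adjustment over 17866 genes at 0.05). TMM factors (0.945 to 1.06) came from the 1450 genes above background in all 6 libraries, because background reads differ between the groups. The background density left out the densest 1% of olfactory receptor genes. Normalised CPM divide counts by the library's counts in genes times its factor. Standard errors are the log2 fold change over the square root of F. Alternatives were other scalings, DESeq2 1.42.0, limma-voom 3.58.1, other filters, thresholds and backgrounds, thinning, a replicate block, all 9 libraries, leaving out each library, and 2 adjustments chosen after seeing the data. No 2 replicates agreed within sampling noise (chi-square per degree of freedom of at least 290.1). Tests were checked on simulated data. Intervals cover the spread of these libraries only.

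The members and gene lists were chosen with earlier results of these data known. The naming rule took the largest called changes, genes at background in 1 group, the most abundant like-level genes, up to 2 members a list, and a fixed set. It gave 89 genes with those added by the later adjustments. The text prints some of them (a few genes are not reported here) and other list members, picked after their values were seen.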

Additional observations from a re-analysis of the deposited data

Results flagged for a closer look

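Reads that fell outside annotated genes are used in no comparison of genes, and their share was higher in old KO libraries, at 54.5% ± 8.61 (SD, n = 3), than in young WT libraries, at 10.3% ± 3.29, with every old KO library above every young one. The exact two-sided permutation test gave p = 0.1, the smallest value for 3 against 3 libraries. Background density moved with it, at 6.51 ± 0.886 against 1.23 ± 0.173 reads per kb, and so did the number of protein-coding genes above background, at 3314 ± 742 against 7803 ± 382. Where these reads came from was not tested.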

How the results depend on the processing

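The main counts were 7660 genes called (7126 higher, 534 lower), 59 higher and 46 lower among co-expressed genes, and 1614 at a like level.

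Scaling set the split of directions. TMM over all tested genes gave 3754 calls (2698 higher, 1056 lower), with 5 higher, 242 lower and 801 at a like level among co-expressed genes. Upper-quartile factors gave 99 lower over all genes, and 456 higher, 2 lower and 633 at a like level among co-expressed genes. DESeq2 gave 4035 lower over all genes, and 22 higher, 1015 lower and 633 at a like level. Of all calls 93.0% were higher in the main test, 71.9% with TMM over all tested genes, 98.9% with upper-quartile factors and 58.4% with DESeq2. Among co-expressed calls these shares were 56.2%, 2.02%, 99.6% and 2.12%, and 67.3% with RLE factors over the reference genes and 44.1% with limma-voom. limma-voom gave 846 lower over all genes and 99 among co-expressed genes, and all 9 libraries 1149 lower.

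Filters and adjustment set the number of calls. No filter gave 19306 calls (18363 higher, 943 lower; 29 lower among co-expressed genes). At least 100 counts, subtracted background and an adjusted p under 0.01 each gave 2 calls, both higher and co-expressed, and 0 lower. Chosen after seeing the data, adjustment over genes above background gave 3 calls, all 3 higher and 0 lower, and adjustment over co-expressed genes gave 6 higher and 4 lower. At an unadjusted p under 0.05 the co-expressed genes held 210. A bound of 0.5 left 958 genes at a like level.

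Without one library, calls ranged from 3683 to 7725 (3521 to 7208 higher, 162 to 551 lower), co-expressed calls from 34 to 53 higher and 21 to 82 lower, and like-level genes from 1320.0 to 1492. The lowest totals were 3683 without old KO library 2 and 4383 without old KO library 1. Lower calls over all genes were 342 without old KO library 3, and 82 of them were co-expressed.

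The replicate numbers did not pair the libraries (correlations of same-numbered deviations -0.0079, 0.015 and -0.025), and a fit with the replicate number as a block gave 6325 calls (6107 higher, 218 lower; 41 higher, 46 lower and 1389 at a like level among co-expressed genes).

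Of the 105 co-expressed calls, signs turned for 27 of 46 lower ones with upper-quartile factors and for 12 and 14 of 59 higher ones with TMM over all tested genes and with DESeq2. Among named genes they turned with upper-quartile factors for B2m (1.46), Eef1a1 (1.48), Rps9 (1.31), Zfp36 (1.53), Klf6 (0.38), Eef1b2 (0.67), H3f3b (0.68) Rps3 (0.41) and Tubb5 (0.21), and also for Gpx4 (1.08), Kit (0.27) and Hlf (1.08), which were not called. With TMM over all tested genes and with DESeq2 they turned for Rplp0 (-1.46 and -1.77), Actb (-0.58 and -0.90), Gapdh (-1.47 and -1.80), Dnajb1 (-0.84 and -1.14), mt-Co1 (-0.83 and -1.13), mt-Cytb (-0.71 and -0.99), Prtn3 (-0.42 and -0.75), Junb (-0.71 and -1.03), Dusp1 (-0.61 and -0.93), Eif1 (-0.37 and -0.68) and Fth1 (-0.57 and -0.85), and with DESeq2 alone for Klf4 (-0.029) and Atf3 (-0.10). The co-expressed median itself was 1.70, -1.43 and -1.71 under these scalings. Depth and background limit the comparison to genes of high level: 17.9% of genes between 50 and 100 normalised CPM in young WT were above background in all 3 old KO libraries.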

Other observations

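Myeloid and erythroid genes were described above only as markers. Prtn3, a protease of neutrophil precursors, had 761, 474 and 559 normalised CPM in young WT and 1522, 1098 and 1266 in old KO (1.12 ± 0.40, adjusted p = 0.042 by edgeR). The libraries did not overlap, but the call was lost in each of the 6 runs that left out a library, and the sign turned with TMM over all tested genes (-0.42) and DESeq2 (-0.75). It was 1 of 7 co-expressed myeloid genes, and no other of them was called, against 2.06% called higher over all co-expressed genes. Of 20 tested erythroid genes, 4 were co-expressed, and none of those was called. Another 11 were above background in young WT only, and 5 of these were called lower, against 8.89% of all genes seen in young WT only. They were seen through the group in which they are high, so this count supports nothing about the list. The 5 were Hba-a1, Hba-a2 and Hbb-bs, globin genes with near-identical copies, Epor, the erythropoietin receptor, and Gata1, an erythroid transcription factor. None of the 5 calls held in all 6 runs: Epor held in 5, Hba-a1 in 4, Hba-a2 and Hbb-bs in 3 and Gata1 in 2. The 5 called higher were above background in fewer than 2 libraries of each group. Among heat shock genes, Dnajb1, a co-chaperone, was the only 1 of 13 co-expressed members called, against 3.66% of all co-expressed genes. It had 2545, 2615 and 2615 against 3369, 4508 and 4228 (0.64 ± 0.20, adjusted p = 0.0229 by edgeR, lost in 5 of the 6 runs), and its sign turned with TMM over all tested genes (-0.84) and DESeq2 (-1.14).

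The spread between replicates was wider in old KO. Over the 2868 co-expressed genes the median coefficient of variation was 51.3% in young WT and 82.0% in old KO, while over the 223 genes with a mean of at least 500 normalised CPM it was 19.1% and 23.6%. A single library held more than 4 times the group's median in 301 genes in young WT (10.5%) and 638 genes in old KO (22.2%). Prpsap2, which had the largest fold change of the co-expressed genes called higher, had 125, 8.05 and 323 normalised CPM in old KO against 0.501 to 1.40 in young WT (7.39 ± 1.76, adjusted p = 0.0121 by edgeR).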
